A study of Mus musculus with 24 samples.

Results

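NMUR1- CD4 T cells are the CD4 T cells of the colonic lamina propria that did not carry the green fluorescent reporter of Nmur1, the gene of the receptor for the neuropeptide neuromedin U (NMU). They made up 8 of the 24 libraries of the study, chosen by the cell type and treatment printed above each column of the count table: 4 from mice given NMU and 4 from mice given PBS, the vehicle. The other 16 libraries held NMUR1+ CD4 T cells and group 2 innate lymphoid cells (ILC2) of the same 8 mice. All mice were Nmur1 iCre-eGFP animals, in which the Nmur1 locus drives both the Cre recombinase and the reporter, and no group without this allele was included. All received 3% DSS, a detergent that injures the colon lining, for 5 days and then plain water for 3 days, with intraperitoneal NMU or PBS every other day. The sample labels number mice 1 to 4 as NMU and mice 5 to 8 as PBS, whereas the design text gives 3 mice per treatment, so the 4 labelled mice were used here. Age and sex are not given in the labels.

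NMU is released by enteric neurons and acts on the G protein-coupled receptor NMUR1, which in the gut is best known from ILC2, where it drives type 2 cytokine and tissue-repair programmes. A CD4 T cell without the receptor could respond only through what surrounds it, such as cytokines, antigen, nutrients and tissue damage. Stromal cells of the colon wall, such as fibroblasts, smooth muscle and endothelium, make collagens and chemokines that T cells do not make, and their transcripts can enter a sorted sample with cell debris or stray cells.

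The T cell markers were present in every library. Cd3e, a chain of the T cell receptor complex, stood at 1095, 1010, 909 and 1073 CPM (counts scaled to a common library size) in NMU mice 1 to 4 and at 1070, 1049, 929 and 1016 CPM in PBS mice 5 to 8. Cd4 stood at 848, 707, 680 and 878 CPM with NMU and at 894, 732, 817 and 896 CPM with PBS. The CD8 genes Cd8a and Cd8b1 did not pass 13.2 CPM in any library. Nmur1 itself was read at 7.86, 2.07, 1.78 and 8.54 CPM with NMU and at 7.51, 3.84, 3.94 and 2.81 CPM with PBS, with overlapping groups and an interval of the log2 difference from -1.06 to 1.39. By library size alone its mean was 4.92 CPM with NMU and 4.625 CPM with PBS, against 37.7 and 38.2 CPM in NMUR1+ cells. The libraries were thus not free of Nmur1 transcripts.

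RNA of other cells was present in every library. Total counts ran from 11273585 to 17854961. Genes detected numbered 14998 to 15271 with NMU and 15418 to 15955 with PBS, and the TMM scaling factors were 0.964 to 0.985 with NMU and 1.01 to 1.04 with PBS, so that both measures separated the treatments without overlap. Their part in the results below was not tested. Immunoglobulin genes, made by B and plasma cells, took 0.302% to 5.58% of the counts with NMU and 0.146% to 3.95% with PBS, highest in mice 1, 4 and 5. The 15 macrophage and dendritic cell markers summed to 2734 to 6468 CPM with NMU and 2863 to 6960 CPM with PBS. Of 7 markers of enteric glia and neurons none had enough counts to be tested, and Sox10, Snap25 and Nmu were at 0 in all 8 libraries. The first principal component of the libraries held 39.8% of the variance, with mice 1, 4 and 5 at one end and mice 2, 3 and 8 at the other, each end holding both treatments. The second held 15.4%, with NMU mice 1 to 4 at -27.4, -24.4, -20.1 and 1.84 and PBS mice 5 to 8 at 8.86, -8.10, 27.3 and 42.0, so that only mouse 6 lay among the NMU mice.

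No gene passed the test between NMU and PBS mice. Of 12103 genes tested with edgeR's quasi-likelihood test, 0.0% had a Benjamini-Hochberg adjusted p under 0.05, and the smallest adjusted p was 0.577. At an unadjusted p under 0.05 there were 877 genes (7.25%), 207 with higher values in NMU mice (1.71%) and 670 with lower values (5.54%). This split moved with the scaling: scaling by library size alone gave 39 higher and 1002 lower, and offsets for the GC content and length of transcripts gave 292 higher (2.41%) and 360 lower (2.97%). limma voom on the same genes also passed 0, whereas DESeq2's Wald test passed 21. Of these Gzma was higher (0.00829%) and 20 were lower (0.166%), among them Col1a1, Ccn1, Myh11, Cxcl12, Loxl1, Cxcl1, Hspg2 and Scap. The 4 NMU libraries all lay above the 4 PBS libraries for 189 genes (1.56%) and all below for 338 (2.79%).

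The data bounded the possible shifts of most genes. Each log2 difference was given a 95% interval from the same fit. The intervals are per gene and not simultaneous, so for genes picked by extreme values, here and below, they are descriptions. For 8534 genes (70.5%) the whole interval lay within 2-fold in either direction. For 5098 genes (42.1%) it lay within 1.5-fold. The bound depended on the level: it held to 2-fold for 33.1% of the 3639 genes between 1 and 10 CPM, for 87.4% of the 5913 genes between 10 and 100 CPM and for 95.7% of the 2143 genes between 100 and 1000 CPM. A gene with the median standard error of 0.21 would have needed a log2 difference of 1.87, a 3.67-fold shift, to pass as the only changed gene. Intervals lying wholly beyond 2-fold were found for 11 genes (0.0909%), though none passed edgeR's test. All were lower with NMU: Hspg2, Lhfp, Col1a1, Loxl1, Myh11, Ccn1, Pcsk5, Papss2, Mfap5, Ptprm and Il33. Of these, 9 were above the count minimum in all PBS libraries but not in all NMU libraries, so they passed the filter through the group where they are high; Col1a1 was above it in all 8, and Il33 was complete in neither group. Hspg2 is the basement membrane proteoglycan perlecan, Loxl1 crosslinks elastin, Mfap5 is a microfibril protein and Myh11 is smooth muscle myosin.

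Stromal lists had the lowest medians of the 44 lists with tested genes. Col1a1, the main chain of type I collagen (chromosome 11, 94936224 to 94953042 in GRCm38.p6), was read at 2.53, 4.42, 2.26 and 3.47 CPM with NMU and at 72.4, 18.9, 8.06 and 19.9 CPM with PBS. Every NMU library lay below every PBS library, with a log2 difference of -3.23 (interval -4.73 to -1.73). The value rests partly on mouse 5, without which it was -2.30. Col3a1, the chain of type III collagen, was at 2.18, 12.9, 2.42 and 15.0 CPM with NMU and at 68.9, 32.7, 10.3 and 50.6 CPM with PBS, so that mice 2 and 4 overlapped with mouse 7. Its log2 difference was -2.32 (interval -4.19 to -0.45). Dcn, the collagen-binding proteoglycan decorin and 1 of the most abundant fibroblast transcripts here, overlapped more: 4.80, 42.8, 12.7 and 28.9 CPM against 48.0, 58.4, 25.8 and 27.2 CPM, with a log2 difference of -0.84 (interval -2.24 to 0.56).

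Among 15 fibroblast markers every one was tested and every one had a negative log2 difference, with a median of -1.55. Unadjusted p was under 0.05 for 8 of the 15, set against 5.54% of all genes in that direction, and libraries did not overlap for 4 (2.79% of all genes in that direction): Col1a1, Mfap5, Cxcl12 and Gsn. Only 7 of the 15 were above the count minimum in all 8 libraries. The other 8 were above it in all PBS but not all NMU libraries. They passed the filter through the group where they are high, so the count and the median are descriptions. The summed level of the list, which does not depend on that filter, was 86.3 to 230 CPM with NMU (median 152) and 213 to 448 CPM with PBS (median 319), so the groups overlapped at NMU mouse 2 and PBS mouse 7. In a bulk sample, fewer stray stromal cells and less RNA per cell cannot be told apart.

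Collagens and other matrix genes gave 32 tested members of 34, of which 31 were negative, with a median log2 difference of -1.39. Of the 32, 17 were above the count minimum in all PBS libraries but not in all NMU libraries. Their sum was 167.98 to 344 CPM with NMU and 314 to 609 CPM with PBS. Col4a1, a chain of the basement membrane collagen, was at 0.786, 0.811, 0.0807 and 0.651 CPM against 2.27, 1.88, 2.43 and 4.63 CPM. Mmp2, a gelatin-cleaving protease, had the smallest standard error of the non-overlapping matrix genes, at 4.54, 6.40, 3.55 and 7.74 CPM against 12.4, 11.8, 7.81 and 9.48 CPM, a log2 difference of -0.90 (interval -1.52 to -0.27). The lists were chosen with earlier results of these libraries known, so their direction is not independent evidence.

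Of 9 smooth muscle and pericyte markers 6 were tested, all at low levels and all below 0, and 4 of the 6 passed the count minimum through their PBS libraries and not through all NMU libraries, so this too is a description. Myh11 was at 0.349, 1.44, 0 and 0.868 CPM with NMU and at 3.44, 13.0, 8.31 and 4.85 CPM with PBS, a log2 difference of -3.46 (interval -5.24 to -1.69). Acta2, the actin of smooth muscle and activated fibroblasts, was at 1.14, 7.03, 1.05 and 3.69 CPM against 12.9, 19.2, 9.32 and 10.8 CPM, a log2 difference of -2.02. Tagln and Cnn1, both actin-binding proteins of smooth muscle, were also without overlap, making 4 of 6 (2.79% of all genes), whereas Des and Actg2 overlapped. The 3 markers that were too low to test were Rgs5 with 41 counts in NMU and 24 in PBS libraries, Pdgfrb with 20 and 33, and Notch3 with 6 and 8. Of 8 endothelial markers 4 were tested, and Plvap, a protein of fenestrated capillaries, was at 9.60, 2.07, 1.37 and 1.66 CPM against 6.26, 14.7, 11.9 and 17.4 CPM, where mouse 1 overlapped. Pecam1, which T cells also transcribe, stood at 108 to 197 CPM with NMU and 117 to 197 CPM with PBS, with an interval from -0.58 to 0.36.

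Of 22 chemokines and growth factors made by stromal cells 14 were tested, of which 11 were below 0, or 13 with GC and length offsets. Unadjusted p was under 0.05 for 7 lower (5.54% of all genes) and 0 higher (1.71%). Of the 14, 9 were above the count minimum in all 8 libraries, 2 in all PBS but not all NMU libraries and 1 the reverse. The summed level of the list was 70.2 to 190 CPM with NMU and 132 to 279 CPM with PBS, so the groups overlapped. Cxcl12, the ligand of CXCR4 that holds lymphocytes in tissue (chromosome 6, 117168535 to 117181368), was at 1.92, 5.77, 3.47 and 3.62 CPM with NMU and at 14.8, 10.3, 8.56 and 15.0 CPM with PBS. Its libraries did not overlap, and the log2 difference was -1.72 (interval -2.47 to -0.97; adjusted p = 0.577 in edgeR). Cxcl1, a neutrophil chemokine, was at 3.75, 3.70, 1.53 and 4.77 CPM against 9.31, 14.4, 6.71 and 14.9 CPM, with a log2 difference of -1.72. It was not particular to stromal cells in this study. By library size alone its mean in ILC2 was 153 CPM with NMU and 111.5 CPM with PBS, a log2 effect of 0.42. The source of Cxcl1 in NMUR1- libraries was not tested. Il33, the alarmin that activates ILC2 through ST2, was at 0.0873, 1.35, 0.0807 and 1.59 CPM against 54.2, 5.18, 0.672 and 8.71 CPM, so that most of its PBS level came from mouse 5. Ccl8, Csf1, Bmp4 and Kitl, also products of stromal or myeloid cells, had log2 differences from -0.12 to 0.25. The median of the 14 was -0.95.

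**Figure D1:**
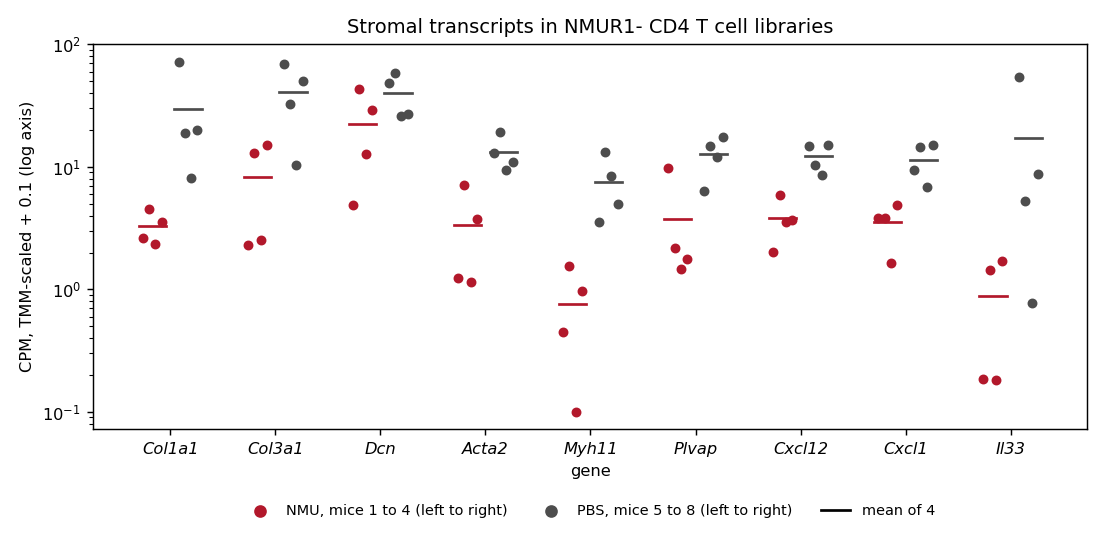
CPM of 9 genes of the stromal lists in the 8 NMUR1- CD4 T cell libraries. Each point is 1 mouse and each bar the mean of 4, with genes on the horizontal axis and CPM plus 0.1 on a log axis. Red NMU points lie below all grey PBS points for Col1a1, Acta2, Myh11, Cxcl12 and Cxcl1, and overlap them for Col3a1, Dcn, Plvap and Il33.

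Markers of several other cells were nearer to 0 by their medians but weakly bounded. Macrophage markers had a median log2 difference of -0.05 over 15 genes, B and plasma cell markers of 0.19 over 12 and epithelial markers of -0.32 over 8. Intervals lay within 2-fold for only 5, 3 and 0 of these. Flt3 of dendritic cells was the only one of these tested genes with non-overlapping libraries (2.79% of all genes in that direction). CD8, NK and gamma-delta T cell markers had medians of 0.66 over 2 genes, 0.58 over 9 and 0.33 over 5. With offsets for transcript GC content and length the fibroblast median was -1.35 and the matrix median -1.28, and Col1a1 was at -2.73. With Col3a1 as a covariate the fibroblast median was -0.21 and the matrix median -0.29, although Col3a1 is itself a member of both lists.

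T cell identity genes were tightly bounded. All 22 genes of the receptor complex and its proximal signalling were above the count minimum in every library, and their summed level was 19480 to 21220 CPM with NMU and 17900 to 19790 CPM with PBS. The intervals lay within 2-fold for 21 of the 22, the exception being the costimulatory receptor Cd27 (interval -0.71 to 1.22), and within 1.5-fold for 18. The log2 difference of Cd3e was 0.01 (interval -0.22 to 0.24) and that of Cd4 was -0.10 (interval -0.37 to 0.17). Values were above 0 for 17 of the 22, against 51.3% of all genes, with a median of 0.19. With the GC and length offsets they were above 0 for 19, against 51.6% of all genes, with a median of 0.13. Unadjusted p was under 0.05 for 2 higher (1.71% of all genes), or 3 with the offsets (2.41%). Cd3d, another chain of the complex, had the smallest p of the list: 690, 783, 749 and 567 CPM with NMU and 542, 590, 527 and 577 CPM with PBS. NMU mouse 4 alone lay within the PBS range, and the log2 difference was 0.32 (interval 0.05 to 0.58). Cd28, the costimulatory receptor, was at 0.29 (interval 0.02 to 0.56). Lck and Zap70, the first kinases of the cascade, were at 0.24 and -0.06.

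Regulatory T cell genes gave no value at an unadjusted p under 0.05 among 20. Foxp3, the lineage factor, was at 213, 136, 69.1 and 220 CPM with NMU and at 196, 169.99, 160 and 111 CPM with PBS. The groups covered each other, with a log2 difference of 0.01, yet the interval from -0.77 to 0.78 allowed anything from 0.587-fold to 1.72-fold, and mouse 3 lay lowest. Ctla4, the inhibitory receptor of regulatory and activated cells, was more even, at 1836, 1521, 1600 and 2021 CPM against 1741, 1766, 1506 and 1474 CPM, a log2 difference of 0.11 (interval -0.18 to 0.39). Il2ra, the high-affinity chain of the IL-2 receptor, had an interval from -0.48 to 0.37. Across the list 14 of 20 intervals lay within 2-fold and 6 within 1.5-fold. Tigit, an inhibitory receptor, had the smallest p, with a log2 difference of 0.38 (interval -0.02 to 0.79), and Lrrc32, the TGF-beta docking protein, had the lowest value at -0.72 (interval -1.78 to 0.34).

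Effector cytokines were weakly bounded, and the mice differed within each group. Ifng was at 94.97, 254, 489 and 133 CPM with NMU and at 79.4, 63.1, 732 and 469 CPM with PBS. Mice 3, 7 and 8 were high and mice 1, 5 and 6 low, whichever the treatment, and the interval ran from -2.72 to 1.78. Il22, an epithelial-protective cytokine of Th17 cells, had the same mice at its top: 668.8 CPM in mouse 3, 599.8 CPM in mouse 7 and 603.03 CPM in mouse 8, against 35.2 to 113 CPM in the other 5. Il17a was at 52.7, 12.6, 64.9 and 97.6 CPM against 78.1, 5.33, 49.3 and 56.5 CPM (interval -1.69 to 2.23). Areg, the epidermal growth factor receptor ligand amphiregulin, was at 85.9, 15.8, 17.2 and 97.4 CPM against 89.3, 29.3, 29.8 and 24.5 CPM, high in mice 1, 4 and 5 (interval -1.39 to 2.04). Il10 was at 316, 87.5, 95.7 and 276 CPM against 229, 193, 148 and 113 CPM (interval -0.87 to 1.24).

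The lineage factors behind these cytokines were held more closely. Tbx21 of Th1 cells had a log2 difference of -0.05 (interval -0.48 to 0.38) and Gata3 of Th2 cells -0.04 (interval -0.61 to 0.53). No member of the Th1 list (12 genes) or of the Th17 list (15 genes) had an unadjusted p under 0.05, and the list medians were 0.10 and -0.09. Cxcr6, a retention receptor of Th1 and resident cells, had the smallest p of the Th1 genes, with mouse 6 low among the PBS mice at 789 CPM and mouse 3 high among the NMU mice at 2821 CPM. Ahr, the sensor of dietary and microbial ligands, had the smallest p of the Th17 genes and an interval from -0.42 to 0.12.

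**Figure D2:**
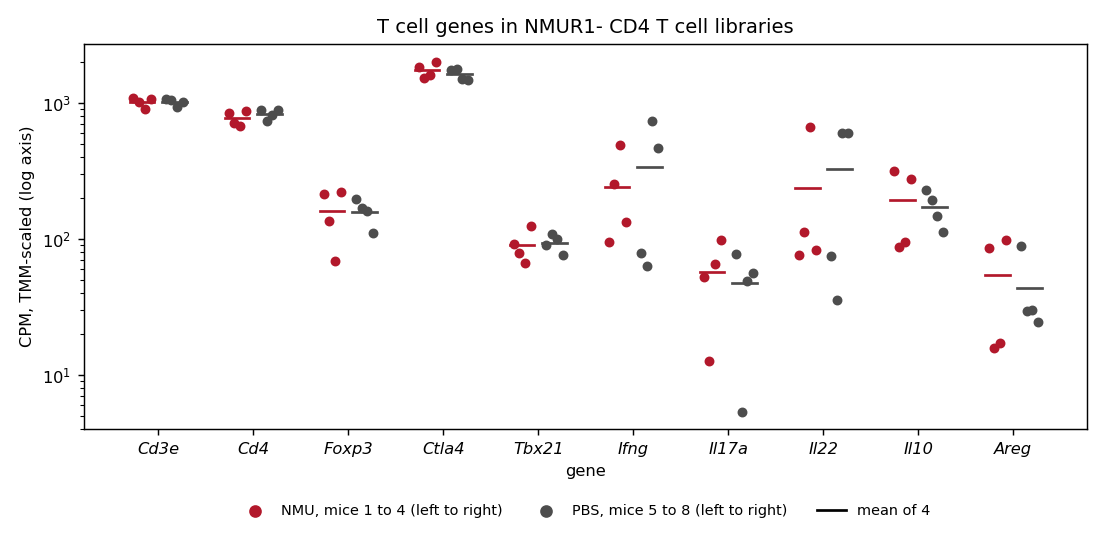
CPM of 10 T cell genes (gene on the horizontal axis; CPM on a log axis) in the 8 NMUR1- CD4 T cell libraries, each point 1 mouse and each bar the mean of 4. Cd3e, Cd4 and Ctla4 points sit close together in both treatments, whereas Ifng, Il17a, Il22 and Areg spread widely within each treatment.

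Among genes of quiescence and residence, Zfp36l2, an RNA-binding protein that destabilises transcripts, had non-overlapping libraries: 78.7, 47.2, 44.9 and 74.6 CPM with NMU against 99.0, 95.2, 96.4 and 132 CPM with PBS. Its log2 difference was -0.78 (interval -1.24 to -0.32). Klf2, the factor that keeps T cells circulating, was at 191, 195, 111 and 209 CPM against 268, 204, 220 and 329 CPM, with mouse 4 above mouse 6 and a log2 difference of -0.53 (interval -1.01 to -0.05). Prdm1, which encodes the effector factor Blimp-1, was at 63.8, 48.9, 55.6 and 61.0 CPM against 47.2, 41.4, 50.9 and 43.6 CPM, a log2 difference of 0.32 (interval 0.05 to 0.60). The tissue-egress receptor S1pr1, a target of Klf2, had an interval from -0.90 to 0.73, which holds both 0 and the value of Klf2. The naive and homing lists as wholes had medians of -0.07 and 0.09, and Klf2, a member of both, was the only naive gene of 13 at an unadjusted p under 0.05. In the homing list of 14 there were 2 lower (5.54% of all genes), Klf2 and Zfp36l2, and 1 higher (1.71%), Prdm1.

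Activation genes had no unadjusted p under 0.05. Of 24 immediate early genes 18 were negative with a median of -0.22, which was -0.08 with the GC and length offsets and turned to 0.20 with Col3a1 as a covariate. Nr4a1, a readout of receptor signalling, was at -0.26 (interval -0.64 to 0.12), and Junb at -0.49 (interval -1.45 to 0.48), with 3240 and 4049 CPM in mice 1 and 4 but 1279 and 1185 CPM in mice 2 and 3. The phosphatase gene Dusp2 had the smallest p, with an interval from -0.85 to 0.02. In the NF-kappaB list 5 of 22 genes had lower values at an unadjusted p under 0.05 (5.54% of all genes): Nfkb2, Relb, Nfkbid, Bcl3 and Tnip1. With GC and length offsets 2 were lower (2.97% of all genes) and 1 was higher (2.41%). Nfkb2, the precursor of the noncanonical p52 subunit, was at 198, 116, 148 and 247 CPM against 367, 194, 318 and 403 CPM, overlapping at mice 1, 4 and 6, with a log2 difference of -0.85. Relb, the partner of p52, was at -0.74. With the offsets Nfkb2 was at -0.46, and Tnip1, an inhibitor of the pathway, moved from -0.37 to -0.09. The canonical subunit genes Rel and Nfkb1 had intervals from -0.52 to 0.57 and from -0.14 to 0.38.

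Proliferation genes varied more between mice than between treatments. Their summed level was 2799, 5190, 7253 and 2769 CPM in mice 1 to 4 and 2651, 2956, 5128 and 5530 CPM in mice 5 to 8. Mice 2, 3, 7 and 8 were high and mice 1, 4, 5 and 6 low, so both treatments held both kinds. None of the 29 genes had an unadjusted p under 0.05, and 25 were above 0 with a median of 0.12. Only 9 of the 29 intervals lay within 2-fold. Mcm6, a subunit of the replicative helicase, had the smallest p, with an interval from -0.12 to 0.67.

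Respiratory chain genes encoded in the nucleus lay slightly above 0 as a group. Of 76 tested genes 69 were positive, against 51.3% of all genes, with a median of 0.17, and 3 had higher values at an unadjusted p under 0.05 (1.71% of all genes). The intervals lay within 2-fold for 75 of the 76 and within 1.5-fold for 50. The summed level was 10600 to 15140 CPM with NMU and 10270 to 12970 CPM with PBS, with mice 2 and 3 above all others. Ndufb8, a subunit of complex I, had the highest value of the list: 209, 285, 282 and 185 CPM against 166, 197, 189 and 190 CPM, a log2 difference of 0.37 (interval 0.04 to 0.71). With the offsets the list stood near 0, with 41 of 76 positive, against 51.6% of all genes, and a median of 0.01. These transcripts are short, with a median length of 913 bases against 3072 over all tested genes.

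Because these genes lay together, their promoters are shown where a script found the palindromic site of NRF1, a factor known to drive nuclear respiratory genes. The site searched was GCGCA followed at once by its reverse complement, which reads the same on both strands, in the 250 bases before each start site in RefSeq (GRCm38.p6). It was present in 4 of the 65 list members with a promoter entry (6.15%), in 0 of 61 cytosolic ribosomal protein genes and in 211 of 27025 promoters overall (0.781%). Each sequence runs 5′ to 3′ on the gene's strand with the site in capitals:
Atp5g2: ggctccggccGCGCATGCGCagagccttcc
Atp5k: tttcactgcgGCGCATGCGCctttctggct
Cox6a1: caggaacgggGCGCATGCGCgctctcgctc
Ndufa11: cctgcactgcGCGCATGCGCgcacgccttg
They lie at chr15:102671070-102671099 and chr5:108434430-108434459 on the minus strand, at chr5:115349101-115349130 on the minus strand and at chr17:56717692-56717721 on the plus strand. Atp5g2 and Cox6a1 were among the few genes of the list below 0, at log2 differences of -0.13 and -0.04, Ndufa11 was at 0.20, and Atp5k was among the highest at 0.34.

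The mitochondrial genome gave a like picture. Of its 13 protein genes 8 were tested, while ATP8, COX2 and COX3 are listed at 0 in all 8 libraries, ATP6 had 1 count in all and ND4L had 3 in NMU and 2 in PBS libraries. CYTB, cytochrome b of complex III, was at 3479, 4124, 4405 and 3061 CPM with NMU and at 2857, 3467, 2967 and 2968 CPM with PBS, where mice 1, 2 and 3 lay above every PBS mouse and mouse 4 did not. Its log2 difference was 0.30 (interval -0.02 to 0.61). ND2 and ND4 of complex I had non-overlapping libraries with log2 differences of 0.17 and 0.18, making 2 of 8 (1.56% of all genes in that direction). The median over the 8 genes was 0.17, and -0.01 with the offsets. Cytosolic ribosomal protein genes were the most tightly bounded group: 76 of 77 intervals lay within 1.5-fold, 65 values were positive with a median of 0.08, and with the offsets 24 were positive with a median of -0.04. Rps27l had the smallest p among them, at 0.22 (interval -0.07 to 0.51). Mitochondrial ribosomal genes had a median of 0.16, or 0.05 with the offsets.

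Carbon metabolism was bounded gene by gene. Sdha, the flavoprotein of succinate dehydrogenase and the gene with the smallest p of both the respiratory chain and the cycle, had non-overlapping libraries: 460, 507, 494 and 455 CPM with NMU and 418, 417, 402 and 370 CPM with PBS. The log2 difference was 0.25 (interval 0.05 to 0.46) and stayed at 0.21 with the offsets. Of 23 genes of the tricarboxylic acid cycle 21 intervals lay within 2-fold, and the median was 0.10. Of 21 glycolytic genes 18 intervals lay within 2-fold, and the median was 0.04. Ldha, which makes lactate, had an interval from -0.40 to 0.48, and Slc2a1, the main glucose transporter of T cells, from -0.34 to 0.25. Slc16a3, the lactate exporter MCT4, was at 27.1, 20.6, 19.2 and 31.5 CPM against 49.1, 23.9, 41.5 and 63.5 CPM, with mouse 6 among the NMU values and a log2 difference of -0.85. Hk1, a hexokinase, was at -0.39, and at -0.07 with the offsets.

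Sterol regulators were among the lower metabolic values. Scap, which escorts the sterol-sensing factors SREBP to the Golgi (chromosome 9, 110333288 to 110384949), was at 12.6, 14.6, 15.1 and 15.9 CPM with NMU and at 29.3, 21.9, 29.6 and 39.8 CPM with PBS. The libraries did not overlap, with a log2 difference of -1.05 (interval -1.48 to -0.63; adjusted p = 0.577 in edgeR), or -0.61 with the offsets. Srebf1 and Srebf2, which encode the factors that Scap escorts, were at -0.62 and -0.60, and at -0.22 and -0.23 with the offsets. The synthetic enzyme gene Sqle had an interval from -0.14 to 0.33. Over 27 tested genes the median was 0.08 and 18 were above 0. In the amino acid and stress response list, Ddit4, an inhibitor of mTORC1, was at 173, 118, 170.3 and 189 CPM against 219, 194, 256 and 384 CPM without overlap, a log2 difference of -0.70. Sesn2, another stress-induced inhibitor of mTORC1, was at -0.75, while Atf4 itself was at -0.28 (interval -0.63 to 0.07) and Asns, its classical target, at 0.14 (interval -0.43 to 0.70).

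**Figure D3:**
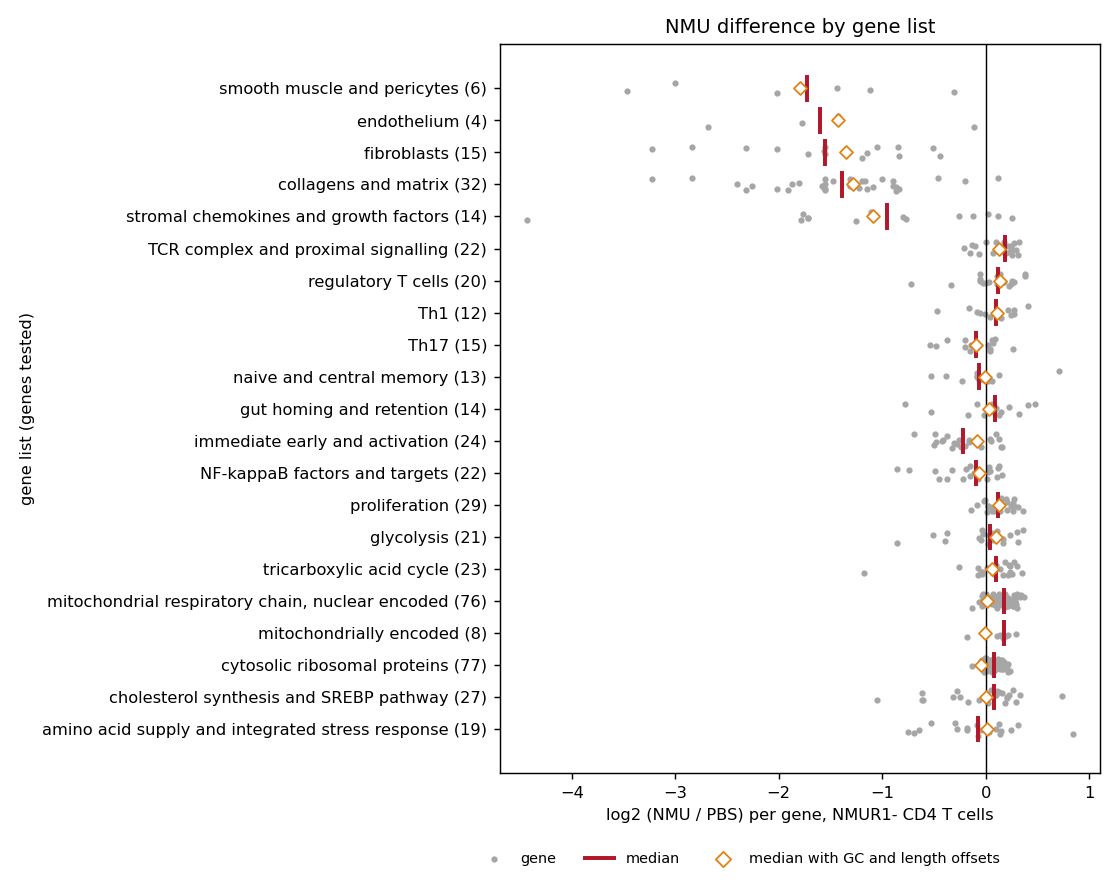
log2 difference of each tested gene (grey), by gene list with the number of genes tested, in NMUR1- CD4 T cells; red bars are list medians and open diamonds the medians with GC and length offsets. The stromal medians lie between -1.73 and -0.95 under the main fit, and the T cell and metabolic medians between -0.22 and 0.19.

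The genes with the smallest p among those with non-overlapping libraries whose higher group averaged 10 CPM or more were taken in each direction. Those below were Scap, Gga1 (a Golgi sorting adaptor), Map7d1 (a microtubule-binding protein), Cxcl12, Rnf40 (a histone H2B ubiquitin ligase), Map3k11 (a kinase upstream of JNK), Chpf2 (a chondroitin chain enzyme) and Fiz1. Map3k11 was at 12.2, 12.7, 9.92 and 19.9 CPM with NMU and at 40.5, 20.2, 36.8 and 49.4 CPM with PBS, a log2 difference of -1.42. Those above included Alg5 (of N-glycan assembly), Lman1 (a cargo receptor between the endoplasmic reticulum and the Golgi), Cyria (a brake on RAC1 signalling to actin), Cetn2 (a centriole protein), Tmem80, Cd96 (an inhibitory receptor of T and NK cells) and Mzt1 (a partner of gamma-tubulin). Their differences were small, with log2 values from 0.31 to 0.55. Alg5 was at 142, 157, 154 and 130 CPM against 108, 120, 117 and 108 CPM, a log2 difference of 0.36 (interval 0.14 to 0.59).

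Transcript composition moved with these genes. The 670 genes below at an unadjusted p under 0.05 had a median GC content of 56.3% and a median length of 3807 bases, and the 207 above had 47.3% and 2330 bases. Of the 670, 381 were in the fifth of tested genes with the highest GC content. With offsets for both, Scap, Gga1 and Rnf40 stood at -0.61, -0.61 and -0.64, down in size from -1.05, -1.06 and -0.95, while Cxcl12 stood at -1.57.

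**Figure D4:**
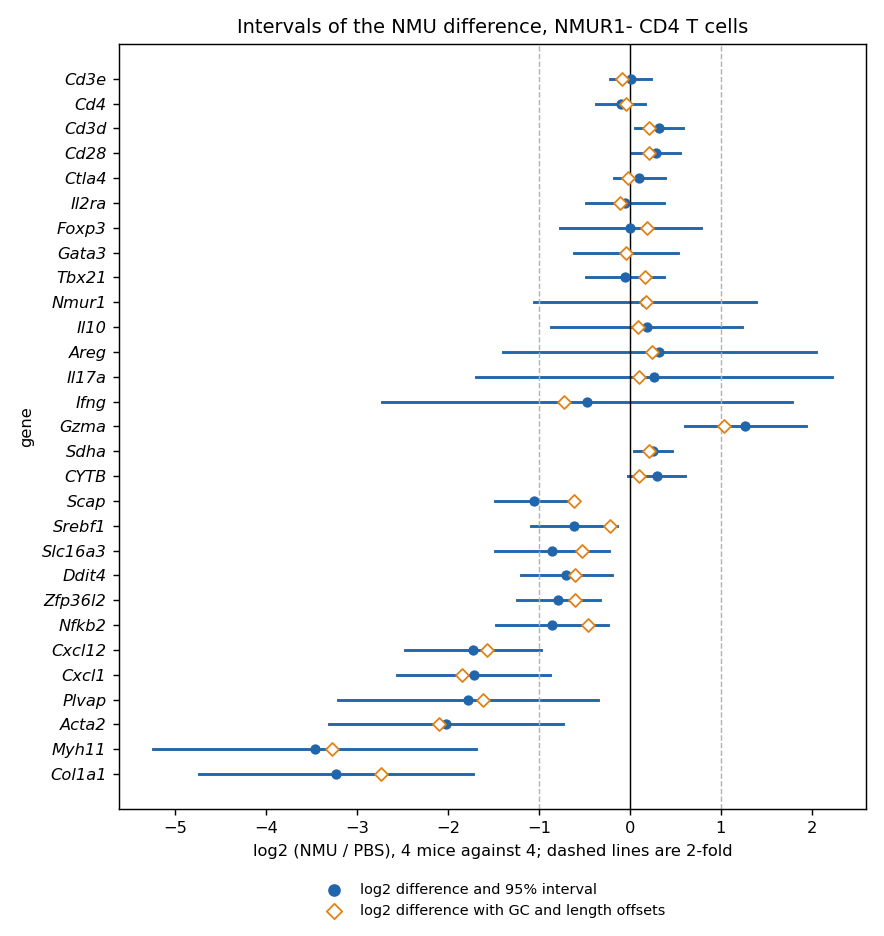
log2 difference (NMU over PBS) with its 95% interval for 29 genes in NMUR1- CD4 T cells, 4 mice against 4, with open diamonds for the value under GC and length offsets and dashed lines at 2-fold. Cd3e and Cd4 lie close to 0, Ifng, Il17a and Areg span 0 widely, and Cxcl12, Cxcl1, Myh11 and Col1a1 lie left of 0.

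The NMU difference in NMUR1- cells was set against that in the receptor-bearing populations of the same mice, in a joint fit of all 24 libraries. Against NMUR1+ CD4 T cells no gene of 13509 passed the test of a difference in NMU effect (0.0% in edgeR). At an unadjusted p under 0.05 there were 157 genes (1.16%). The joint fit shares a common spread per gene over all populations, ILC2 included. For Cd3e its standard error of the difference was 0.83, against 0.10 and 0.13 for NMUR1- and NMUR1+ cells fitted alone. The absence of passing genes therefore does not show that the effects were alike. With mouse as a block 1 gene passed (0.0074%), the immunoglobulin segment Igkv14-130. In NMUR1+ libraries it had 28842 counts with NMU and 195 with PBS, and in NMUR1- libraries 26 with NMU and 424 with PBS. Against ILC2, 72 genes differed, 51 with a higher NMU effect in NMUR1- cells (0.378%) and 21 with a lower one (0.155%); with mouse as a block they were 20 (0.148%) and 16 (0.118%). At an unadjusted p under 0.05 there were 11.3%. Each population tested alone gave 0 genes in NMUR1+ cells (0.0%) and 74 in ILC2 (0.66%). Leaving out 1 mouse moved the count of genes that differed in NMU effect from ILC2, 72 with all mice, to between 20 and 83. The effects in NMUR1- cells were small for the genes that differed most. Irf4, a factor induced by receptor signalling, had a log2 effect of -0.02 in NMUR1- cells and 2.02 in ILC2, a difference of -2.06. Ctla4 was at 0.11 and 2.36, Tnfrsf4, which encodes OX40, at 0.25 and 2.26, Stx11, a SNARE protein of granule release, at 0.02 and 1.67, and Cd52 at 0.18 and 1.74. In the other direction Snx9, Pid1, Pfkfb4 and Cd40lg were among those that led. Snx9 had 0 counts in ILC2 of NMU mice and 321 in ILC2 of PBS mice, against 3218 and 3042 in NMUR1- cells, so its fitted ILC2 effect has no lower limit.

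Fibroblast and matrix medians lay below 0 in all of these populations. The fibroblast medians were -1.55 over 15 genes in NMUR1- cells, -1.001 over 15 genes in NMUR1+ cells and -3.13 over 13 genes in ILC2. For Col1a1 the standard error of the difference in NMU effect was 1.85 against NMUR1+ cells and 1.88 against ILC2. No fibroblast, matrix, smooth muscle or endothelial gene passed the test of a difference between NMUR1- cells and either of the others. Among complement genes made by stromal cells, C3 was one that did against ILC2 in edgeR (adjusted p = 0.0208), with ILC2 counts of 1 in NMU and 134 in PBS libraries. With mouse as a block it did not pass (adjusted p = 0.0509). Smooth muscle medians pointed apart, at -1.73 over 6 genes in NMUR1- cells and 0.57 over 5 genes in NMUR1+ cells. The proliferation medians were 0.12 in NMUR1- cells and 0.97 in ILC2, with 0 of 29 genes differing past the threshold, and the tissue repair medians were -0.29 and 0.98.

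**Figure D5:**
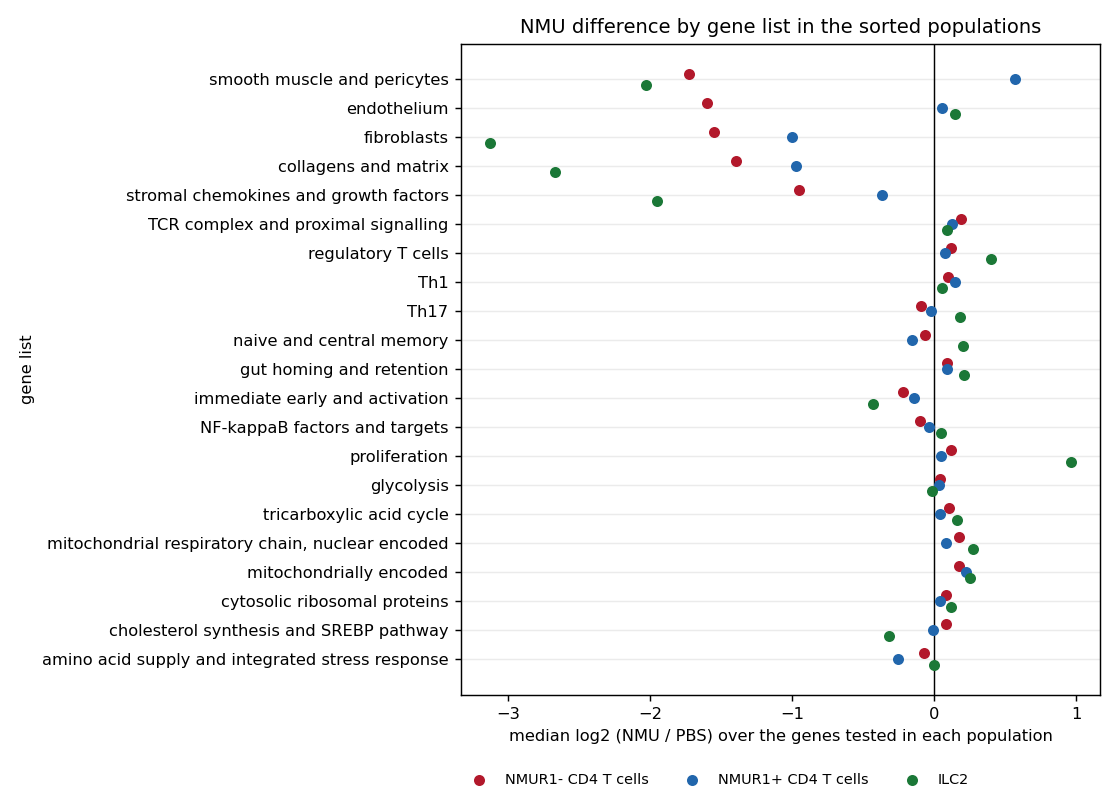
Median log2 difference (NMU over PBS) of each gene list over the genes tested in NMUR1- CD4 T cells (red), NMUR1+ CD4 T cells (blue) and ILC2 (green), 4 mice against 4 in each. Fibroblast and matrix medians lie left of 0 in all of them, and the proliferation median of ILC2 lies at 0.97.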

How the data were processed

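The data were whole-number read counts per gene for 27179 gene identifiers in 24 libraries, deposited by the authors as 1 table, with STAR 2.5.3 and the mouse build mm10 named in the submitters' processing notes; the counting tool, annotation and strand setting: not given in the sources used here. Per the labels' protocols the RNA was amplified as cDNA with a low-input kit, with no molecular identifiers described, so counts are not molecules. Symbols were matched for 25275 identifiers; the 1904 others (0.986% of counts) stayed in the fits. The 8 NMUR1- libraries held 11273585 to 17854961 counts, and the replicates, which are mice, differed by more than sampling noise.

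Genes with at least 10 counts at the median depth (0.803 CPM) in 4 libraries were kept, scaled by TMM and tested with edgeR 4.0.16 (robust quasi-likelihood, Benjamini-Hochberg adjustment) in R 4.3.3, tested on simulated data; all tests were two-sided. Log2 differences are NMU minus PBS. Their 95% intervals use a standard error set as the size of the difference over the square root of the quasi-likelihood F, so they are approximate. CPM were computed from these counts on TMM-scaled library sizes. Differences of effects were fitted over all 24 libraries. Numbers pair these populations, since the same 8 mice gave them; deviations of same-numbered libraries correlated at 0.03 to 0.43 with NMUR1+ cells and 0.00 to 0.23 with ILC2. limma 3.58.1 voom, DESeq2 1.42.0, other scalings, filters and covariates, and leaving out each mouse were alternatives. GC and length offsets (from 93.3% of tested genes) were added after seeing the data.

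The members and all 45 gene lists were chosen with earlier results of these data known. Named by rule were 15 set genes, 8 genes per direction by p among those with non-overlapping libraries and 10 CPM in the higher group, up to 2 per direction from each of 21 lists, and 5 per direction from each difference; some are not reported here. Other list members are named as examples chosen after their values were seen. Promoter letters are from RefSeq.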

Additional observations from a re-analysis of the deposited data

Results flagged for a closer look

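Single mice stood far from the others of their treatment in 13 of 202 checks of gene levels and summed list levels, where the gap to the nearest mouse took most of the group's range. Chance alone gives about 1 in 20 groups. Among genes, these were Areg at 89.3 CPM in PBS mouse 5, Cyria at 59.0 CPM in PBS mouse 8, Fiz1 at 40.0 CPM in NMU mouse 4, Plvap at 9.60 CPM in NMU mouse 1, Cxcr6 at 789 CPM in PBS mouse 6 and Zfp36l2 at 132 CPM in PBS mouse 8. Among sums, PBS mouse 5 stood apart for the CD8 markers at 15.2 CPM, for B and plasma cell markers at 30200 CPM and for circadian clock genes at 2400 CPM. PBS mouse 6 did so for tissue repair genes at 398 CPM and mitochondrially encoded genes at 6941 CPM, and NMU mouse 3 for Th1 genes at 5269 CPM and fatty acid synthesis genes at 1428 CPM.

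Besides C3, given above, the NMU effect differed between NMUR1- CD4 T cells and ILC2 for the 9 genes listed next. The test was edgeR's quasi-likelihood test of the difference of effects. The difference was positive for Snx9 at 9.65 (adjusted p = 6.01e-05), Pid1 at 8.95, Pfkfb4 at 7.92 and Cd40lg at 8.17. The ILC2 libraries of NMU mice held 0 to 1 counts of Snx9, Pid1, Pfkfb4 and Cd40lg, so those fitted sizes depend on the fit's prior count and are no bounds. It was negative for Irf4 at -2.06 (adjusted p = 0.000361), Stx11 at -1.66, Tnfrsf4 at -2.02, Cd52 at -1.57 and Ctla4 at -2.27 (adjusted p = 0.00375).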

How the results depend on the processing

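The count of genes that passed between NMU and PBS mice was 0 in edgeR under every scaling, filter, covariate and left-out mouse tried and in limma voom, and 21 with DESeq2. No paired analysis was possible because NMU and PBS were given to different mice. With mouse as a block, 1 gene differed in effect from NMUR1+ cells and 36 from ILC2, where limma voom gave 21 and leaving out a mouse gave 20 (without mouse 1) to 83. Counts at an unadjusted p under 0.05, higher and lower, were 207 and 670 in the main analysis, 39 and 1002 by library size alone, 268 and 626 with DESeq2 size factors, 292 and 360 with GC and length offsets, 87 and 165 with Col3a1 as covariate, 1015 and 979 with Jchain and Lyz2, 73 and 161 with all 24 libraries sharing the spread, 256 and 641 without immunoglobulin genes, 284 and 919 with no filter, and 97 and 501 without mouse 7. Library size alone moved the median of all genes to -0.06. With Col3a1, medians were -0.21 for fibroblasts, -1.05 for smooth muscle, -0.29 for matrix, -0.0016 for stromal chemokines and 0.20 for immediate early genes. With offsets the mitochondrially encoded median was -0.01. Gut homing ranged from -0.017 to 0.14, and fibroblasts from -1.86 to -1.17, without 1 mouse. Of 57 named genes 45 kept their sign throughout. The intervals of the others all included 0 in the main analysis, that of Rps27l running from -0.07 to 0.51 around 0.22. With Jchain and Lyz2 the sign turned for Areg (-0.46), Cd3e (-0.024), Foxp3 (-0.30), Ifng (0.25), Il10 (-0.36), Il2ra (0.11) and Nmur1 (-0.49). With offsets it turned for Cd3e (-0.091), Ctla4 (-0.019), Rps27l (-0.0052) and Tbx21 (0.17). With Col3a1 it turned for Gata3 (0.20) and Tbx21 (0.072), by library size alone for Cd3e (-0.064) and Foxp3 (-0.065), and with voom for Foxp3 (-0.10) and Nmur1 (-0.014). Without 1 mouse the ranges were -0.12 to 0.96 for Areg, -0.033 to 0.062 for Cd3e, -0.19 to 0.26 for Foxp3, -0.22 to 0.14 for Gata3, -1.06 to 0.25 for Ifng, -0.15 to 0.43 for Il10, -0.12 to 0.62 for Il17a, -0.18 to 0.065 for Il2ra, -0.21 to 0.52 for Nmur1 and -0.24 to 0.075 for Tbx21. The cause was not tested. Intervals were widest for genes under 10 CPM, and the parts of depth and of spread between mice in this were not tested.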

Other observations

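Markers of NK and gamma-delta T cells were read as a check of the gate. Gzma, a granule protease of NK and cytotoxic cells, was at 114, 153, 198 and 76.7 CPM with NMU and at 48.4, 51.9, 44.3 and 79.7 CPM with PBS, so that NMU mouse 4 and PBS mouse 8 overlapped, with a log2 difference of 1.27 (interval 0.60 to 1.94). Gzmb, a related protease, was at 701, 1116, 1078 and 506 CPM against 496, 640, 825 and 996 CPM, with the groups mixed. Trdc, the constant segment of the delta chain, was at 11.3, 14.4, 9.28 and 7.52 CPM against 6.03, 6.12, 7.64 and 5.29 CPM, a log2 difference of 0.76 (interval 0.22 to 1.30). Of 9 NK cell markers tested 8 were above 0 (51.3% of all genes), or 7 with GC and length offsets, and of 5 gamma-delta markers 3 were above 0 and 2 below.

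Regulators of mTORC1 and lysosomes held 4 of 17 genes at an unadjusted p under 0.05 in the lower direction (5.54% of all genes). Tsc2, which restrains mTORC1, was at 18.0, 9.92, 15.8 and 16.5 CPM with NMU and at 25.9, 22.7, 25.3 and 27.7 CPM with PBS, without overlap, a log2 difference of -0.75, or -0.48 with GC and length offsets. Tfeb and Tfe3, factors of lysosome genes, were at -1.13 and -0.70, and Mlst8, a subunit of the mTOR complexes, at -0.44. In the circadian list, Npas2, a partner of BMAL1, was at 1.13, 0.992, 0.887 and 1.08 CPM against 3.68, 2.35, 2.94 and 2.65 CPM without overlap, a log2 difference of -1.49. Cry1, a repressor of the clock, was also without overlap at -0.42 (interval -0.73 to -0.12), making 2 of 17 (2.79% of all genes in that direction). In the interferon list of 23 genes, Stat2 alone lay below without overlap at -0.54 (2.79% of all genes). Gbp3 alone lay above without overlap at 0.25 (1.56% of all genes), and the list median was 0.07.

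Mice 1, 4 and 5 differed from the other 5 in several T cell genes across treatments. Lag3, an inhibitory receptor, was at 365, 326 and 395 CPM in these and at 62.3 to 129 CPM in the others, and Areg was at 85.9 to 97.4 CPM against 15.8 to 29.8 CPM. Nmur1 was at 7.86, 8.54 and 7.51 CPM in these mice and at 1.78 to 3.94 CPM in the others. Pdcd1, which encodes PD-1, was at 295, 425 and 459 CPM in these, with mouse 6 at 313 CPM among them and the others at 85.0 to 250 CPM. The immunoglobulin share of the same 3 libraries was 2.83%, 5.58% and 3.95%, against 0.146% to 0.450% in the others; its part in these values was not tested.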
